A study of Zea mays with 2 samples.

Results

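The short arm of maize chromosome 6 was examined over its first 37 Mb, as the set of chromatin loops and TAD-like domains that ended at or before that position in the B73 AGPv4 reference. Replicate 1 had 206 loops there, of 16863 loops on chromosomes 1 to 10, and 277 domains of 17978. Replicate 2 had 284 loops of 25628 and 286 domains of 18739. Membership was set by position alone, so that no measured value entered the rule, although the stretch itself was picked with earlier results of these data known. The label was not checked against the data, since neither the nucleolus organizer nor the centromere is annotated in the files used here.

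The short arm of chromosome 6 carries the nucleolus organizer of maize, a long tandem array of ribosomal RNA genes around which the nucleolus forms. A chromatin loop, as called from Hi-C, is a pair of anchors that contact each other more often than their surroundings do. A TAD-like domain is a stretch that contacts itself more than its neighbors. A level 0 domain is not nested in any other, and sub-domains of level 1 and above lie inside it.

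Whole leaf tissue of the inbred line B73 was collected at development stage v04 from plants grown in a greenhouse, and Hi-C was performed in 2 biological replicates. Both replicates were of the same genotype, tissue and stage, without any treatment, and each pooled several plants, so differences between plants were not measured. Loops and domains had been called in each replicate separately, and the lists do not give the total number of contacts, so the depth of each library could not be computed from them and was not used here. Whole leaf holds several cell types, and a contact in a few cells cannot be told apart from a weak contact in all of them.

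Technical differences touched every count of loops. Loops were called with Juicer Tools 1.9.9 in Replicate 1 and 1.14.08 in Replicate 2, and anchor sizes differed as well. In the first 37 Mb of chromosome 6, the anchors of Replicate 1 were 5 kb long in 49 loops, 10 kb in 104 and 25 kb in 53, while all 284 loops of Replicate 2 had anchors of 10 kb. The number of contacts at a loop ranged from 10 to 87 in Replicate 1, with a median of 21, and from 12 to 136 in Replicate 2, with a median of 30. Replicate 2 had both more loops and more contacts per loop. The part of the software version and of the anchor sizes in the differences between the replicates was not tested. Setting 1 chromosome against 9 cannot give an exact permutation p below 0.1, so chromosome 6 is given beside the range of the others, without a test.

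Loops were sparser in the first 37 Mb of chromosome 6 than in the first 37 Mb of any other chromosome, in both replicates, though not as sparse as in the poorest stretch of any chromosome. The density was 5.57 loops per Mb in Replicate 1 (95% exact Poisson interval 4.83 to 6.38, for counting error only), against 7.19 to 11.8 in the other 9 chromosomes. In Replicate 2 it was 7.68 loops per Mb (6.81 to 8.62), against 11.5 to 17.9. The 2 replicates gave a mean of 6.62 ± 1.49 loops per Mb (SD, n = 2). The next sparsest chromosome was chromosome 10, with 266 and 427 loops. The density of chromosome 6 was 0.617 of the median of the others in Replicate 1 and 0.568 in Replicate 2, a mean of 0.592 ± 0.0345 (SD, n = 2). Part of the stretch lay outside level 0 domains. Counted per Mb covered by level 0 domains, the density was 5.99 and 8.27, which was 0.661 and 0.608 of the median of the others and was still the lowest. When windows of 37 Mb were moved along the chromosomes in steps of 1 Mb, each of the 10 chromosomes had one with fewer loops, the poorest holding 97 to 168 in Replicate 1 and 111 to 229 in Replicate 2. On chromosome 6 itself this lay from 40 to 77 Mb in Replicate 1, with 157 loops, and from 37 to 74 Mb in Replicate 2, with 229.

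The opposite end of the same chromosome stood at the other extreme. The last 37 Mb of chromosome 6 held 466 loops in Replicate 1 and 770 in Replicate 2, in both replicates the most of any chromosome, where the others had 312 to 458 and 480 to 732. Over its whole length, chromosome 6 had 7.81 and 11.95 loops per Mb, within the range of the others (7.07 to 8.89 and 10.7 to 13.5). The first 37 Mb made up 21.3% of the length of chromosome 6 but held 15.2% of its loops in Replicate 1 and 13.7% in Replicate 2.

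**Figure D1:**
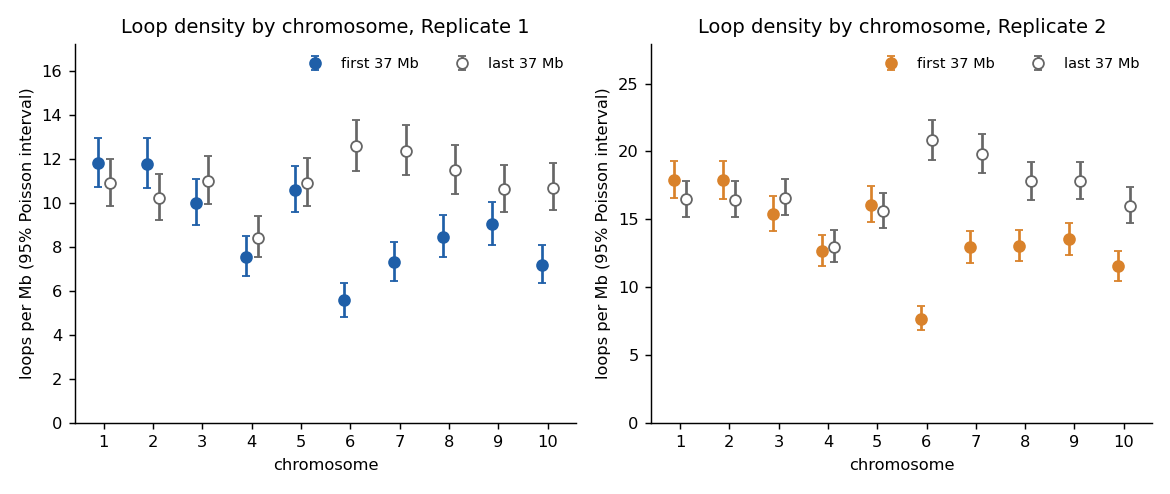
Loops per Mb (y axis, with 95% exact Poisson intervals) in the first 37 Mb (filled) and the last 37 Mb (open) of each chromosome (x axis), for Replicate 1 (left) and Replicate 2 (right). The first 37 Mb of chromosome 6 lay lowest in both, at 5.57 and 7.68 loops per Mb, and its last 37 Mb lay highest.

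The loops were unevenly spread along the stretch. Each loop was given to the 1-Mb window that held its midpoint. The median window of the stretch held 5 loops in Replicate 1 and 8 in Replicate 2, against 9 and 15 in the first 37 Mb of the other chromosomes. The 3 windows with the most loops over both replicates lay on either side of the middle. The window from 4 to 5 Mb held 10 and 17 loops, that from 23 to 24 Mb held 11 and 15, and that from 2 to 3 Mb held 12 and 14. The highest single count of Replicate 1, 14 loops, was in the window from 3 to 4 Mb, which held 9 in Replicate 2. Window by window, the numbers of loops in the replicates followed each other (Pearson's r = 0.759, Spearman's rho = 0.798 over 37 neighboring windows of the same libraries, as a description). Without windows 12 to 15 these were 0.668 and 0.722. The numbers of domains per window followed each other less closely (r = 0.552, rho = 0.399), and without the same windows r was 0.139.

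Windows without a loop lay together. Replicate 1 had 4 such windows, windows 12 to 15 from 11 to 15 Mb, where 2.48% of the 2101 windows of chromosomes 1 to 10 had none. Replicate 2 had 2, windows 12 and 14, against a background of 2.05%. Only 3 and 1 of the 333 windows in the first 37 Mb of the other chromosomes were without a loop. Windows 12 and 14 were without a loop in both replicates, as were 18 of the 2101 windows. Replicate 2 had 1 loop each in windows 13 and 15.

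The loop of window 13 had no anchor there. It joined chr6:10450001-10460000 to chr6:15470001-15480000, a length of 5020 kb, and was the longest loop of the stretch. It had 12 contacts against 0.459 expected from the local background, a ratio of 26.2, and had no counterpart in Replicate 1. Between its anchors lay the longest stretch of chromosome 6 without a loop anchor. In Replicate 1 no anchor fell in chr6:10560001-15050000, 4490 kb, the longest such stretch of chromosomes 1 to 10. In Replicate 2 none fell in chr6:10970001-14810000, 3840 kb, which was the longest but one, after a stretch of 4210 kb on chromosome 7.

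**Figure D2:**
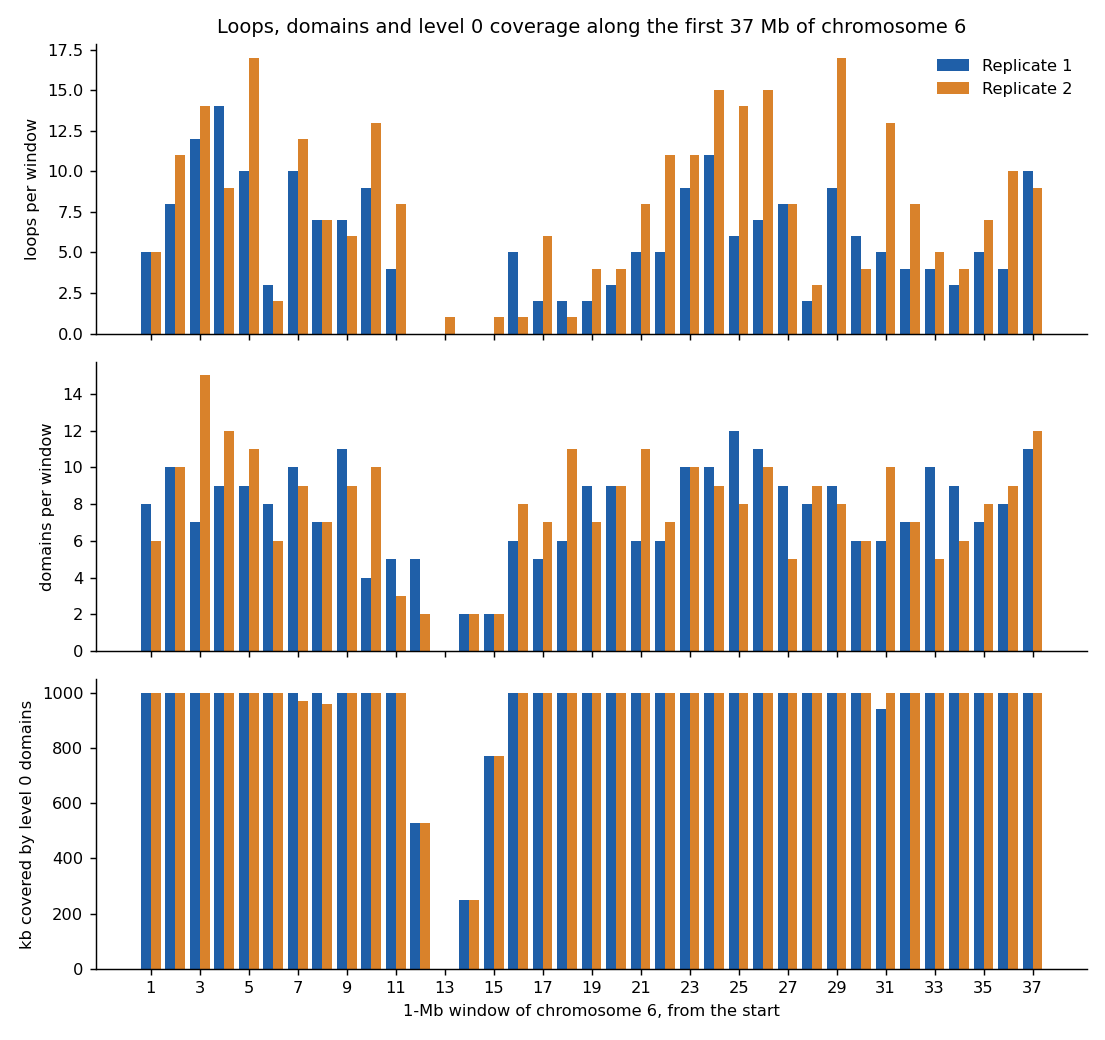
Loops (top), domains (middle) and kb covered by level 0 domains (bottom) in each 1-Mb window of the first 37 Mb of chromosome 6 (x axis, windows counted from the start), for Replicate 1 (blue) and Replicate 2 (orange). Window 13 held no domain in either replicate and lay wholly outside level 0 domains. The replicates covered windows 12 to 15 to the same extent.

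The level 0 domains were interrupted in the same place. The stretch chr6:11530001-13430000, 1900 kb, lay outside every level 0 domain, and its limits were identical in both replicates. It was the longest uncovered stretch of chromosomes 1 to 10 and the only one of 1 Mb or more. A further stretch, chr6:13680001-14230000, 550 kb, was uncovered with identical limits in both replicates. It tied for the rank of 6 by length. Stretches of 500 kb or more numbered 8 over the 10 chromosomes in each replicate, of which the first 37 Mb of the other 9 chromosomes together held 2. Whether few contacts or evenly spread contacts left these stretches without a domain cannot be told apart from lists of calls. Whether reads could be mapped to these bases, or whether the assembly has a gap there, was not tested, and this bears on the coverage, on the windows without a loop and on the density per Mb.

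Between both uncovered stretches stood an island of 250 kb. It held 2 level 0 domains in each replicate. They met at position 13570000 in Replicate 1, where they were 140 and 110 kb long, and at 13510000 in Replicate 2, where they were 80 and 170 kb long. The outer edges of the island were the same in both replicates and its inner boundary was not. No loop anchor fell on it.

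The level 0 domain just before the gap was among the largest of the stretch. It was chr6:10090001-11530000 in Replicate 1, 1440 kb, and chr6:10020001-11530000 in Replicate 2, 1510 kb. Both ended at the same base, where the uncovered stretch began. Inside it, Replicate 1 had 9 sub-domains down to level 3 and Replicate 2 had 4 down to level 2. None of these matched between the replicates.

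Over the whole stretch, domains of level 3 or more were a larger share than on the other chromosomes, and domains were fewer. The stretch had 7.49 domains per Mb in Replicate 1 and 7.73 in Replicate 2, the lowest of the 10 chromosomes in both, where chromosome 10 came next with 7.81 and 8. Per Mb covered by level 0 domains, the stretch had 8.06 and 8.32 domains, and chromosome 10 was then lower in both replicates, with 7.84 and 8.01. Level 0 domains numbered 95 and 104, against 116 to 169 and 111 to 176 in the others. Per covered Mb they numbered 2.76, again the fewest, in Replicate 1 and 3.03 in Replicate 2, where chromosome 10 had 3.005. Their median size was 230 and 240 kb, within the range of the others (170 to 230 kb and 165 to 280 kb). They covered 92.9% of the stretch in each replicate, where the other chromosomes were covered to at least 97.0% and 97.1%.

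Sub-domains made up 65.7% of the domains in Replicate 1 and 63.6% in Replicate 2. Both were the highest of the 10 chromosomes, although the highest of the others in Replicate 2, 63.5%, was close by. Domains of level 3 or more were 33 of 277 in Replicate 1 (11.9%, 95% Wilson interval 8.61 to 16.3%) and 30 of 286 in Replicate 2 (10.5%, 7.45 to 14.6%), against 1.38 to 6.71% and 1.82 to 6.63% in the others. The share of level 0 domains that were divided at all was not extreme. It was 41.1% in Replicate 1 and 38.5% in Replicate 2, where the others ranged from 29.6 to 42.2% and from 32.7 to 48.5%.

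The deepest domains were of level 4, a depth also reached on chromosomes 1, 3 and 4 in both replicates. Chromosome 7 reached it in Replicate 1 alone, and chromosomes 2, 5 and 9 in Replicate 2 alone. The stretch of chromosome 6 had 8 domains of level 4 in Replicate 1 and 4 in Replicate 2. One nest of this depth was seen in both replicates near 8 Mb. In Replicate 1 a level 0 domain at chr6:7650001-8570000, 920 kb, enclosed domains of 850, 720 and 410 kb in turn, and the last of these was split into domains of 270 and 140 kb. In Replicate 2 the level 0 domain at chr6:7610001-8570000, 960 kb, enclosed domains of 900, 740 and 410 kb, the last split into 250 and 160 kb. Each step of the series had a counterpart of similar size, yet none of the level 4 domains met the 10-kb limit for a shared domain. The other nests of level 4 differed between the replicates. Replicate 1 had them in level 0 domains of 1260 kb at chr6:21260001-22520000, of 760 kb at chr6:24700001-25460000 and of 1000 kb at chr6:33090001-34090000. Replicate 2 had one in a level 0 domain of 1110 kb at chr6:16260001-17370000.

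The domains of the part from 10 to 20 Mb hardly recurred between the replicates, while those nearer to the limit at 37 Mb did. A domain was counted as shared when both of its boundaries lay within 10 kb of those of a domain of the other replicate. Both replicates thus draw on the same matches, and their shares are not independent of each other. Of all domains in the stretch, 94 were shared in each replicate. This was 33.9% of Replicate 1 and 32.9% of Replicate 2, against 38.7% and 37.1% over chromosomes 1 to 10.

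From 10 to 20 Mb, limits that were chosen after the values were seen, only 2 of 46 domains of Replicate 1 were shared (4.35%, Wilson interval 1.20 to 14.5%), where the same part of the other chromosomes had 35 to 50%. In Replicate 2 it was 2 of 48 (4.17%, 1.15 to 13.98%), against 32.7 to 50.6%. With 50 kb allowed at each boundary, 10 domains of each replicate were shared, or 21.7% and 20.8%, still below the lowest of the others at 58.0% and 54.3%. Of 206 consecutive stretches of 10 Mb on the 10 chromosomes, none had a lower share in either replicate. The next lowest was on chromosome 7 from 60 to 70 Mb, with 7.69% and 5.88%.

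The low share was not limited to the windows that held the uncovered stretches. From 15 to 20 Mb, where level 0 domains covered every window, 1 of 31 domains of Replicate 1 was shared (3.23%, others 34.0 to 55%). In Replicate 2 it was 1 of 38 (2.63%, others 32.1 to 60.8%). With 50 kb allowed at each boundary the shares were 25.8% and 21.1%, again below all the others. This part lies inside the limits of 10 to 20 Mb, which were chosen after the values were seen. The part of the uncovered stretches in the low share was not tested. From 20 to 37 Mb the shares were 42.8% and 44.3%, within the ranges of the other chromosomes. In the first 10 Mb they were 36.6% and 31.9%, just below the lowest of the others, 37.3% and 35.5%. Without the part from 10 to 20 Mb, the shared domains were 40.5% of Replicate 1 and 39.3% of Replicate 2.

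Loops were fewest in the same part. From 10 to 20 Mb Replicate 1 had 17 loops and Replicate 2 had 24, where the others had 71 to 135 and 129 to 192. Of the 206 stretches of 10 Mb, 3 had fewer loops in Replicate 1 and 5 in Replicate 2. Of these loops, 3 were shared in each replicate, which was 17.6% of Replicate 1 (6.19 to 41.0%) and 12.5% of Replicate 2 (4.34 to 31.0%). The others had 40.4 to 58.6% and 26.3 to 37.7%, and the intervals of chromosome 6 reached into both ranges. From 15 to 20 Mb, where no window lay outside level 0 domains, there were 13 and 14 loops, against 32 to 69 and 58 to 94 in the others. Outside this part the stretch was closer to the other chromosomes. The first 10 Mb had 82 and 93 loops, above chromosome 4 alone in both replicates, and the part from 20 to 37 Mb had 103 and 162, with 2 and 1 of the others lower. Without 10 to 20 Mb, the density was 0.826 of the median of the others in Replicate 1 and 0.743 in Replicate 2, and 1 other chromosome was then lower in Replicate 1.

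**Figure D3:**
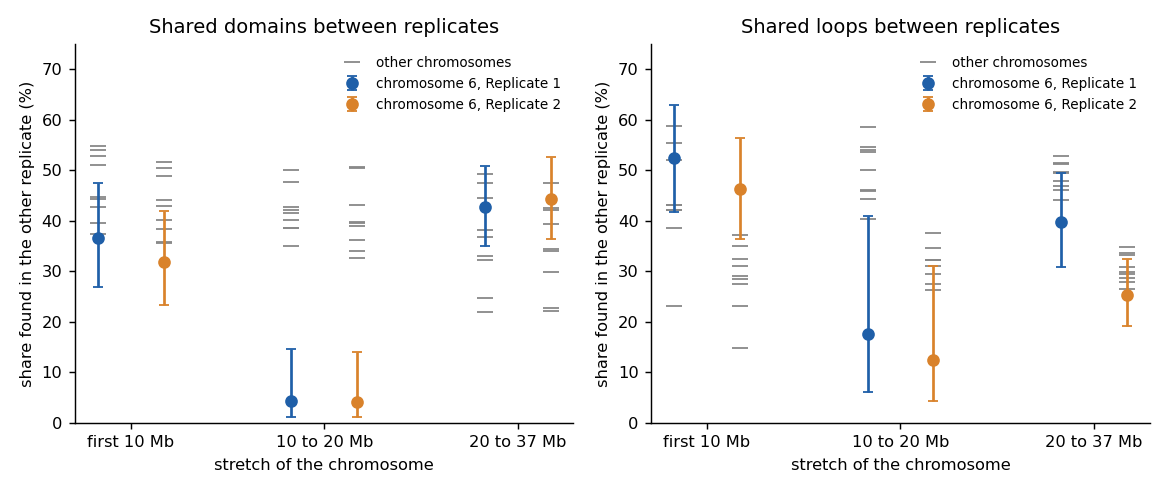
Share of domains (left) and of loops (right) that were found in the other replicate (y axis, %), in 3 parts of the first 37 Mb (x axis). Points are chromosome 6 with 95% Wilson intervals, in Replicate 1 (blue) and Replicate 2 (orange), and grey dashes are the other 9 chromosomes. Shared domains of chromosome 6 fell to 4.35% and 4.17% from 10 to 20 Mb and were 42.8% and 44.3% from 20 to 37 Mb.

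The largest level 0 domains that recurred lay on both sides of the gap. Level 0 domains that were shared and of level 0 in both replicates numbered 26, which was 27.4% of all level 0 domains of Replicate 1 and 25% of Replicate 2. The largest was chr6:31620001-32500000, with lengths of 880 and 890 kb in the respective replicates. The next was chr6:14930001-15510000, 580 kb in both, moved by 10 kb in Replicate 2. The domain at chr6:9090001-9620000 was 530 and 520 kb long. It was undivided in Replicate 1 and held 6 sub-domains in Replicate 2. Both boundaries were identical in 2 of the 26, the neighbors chr6:8570001-8850000 and chr6:8850001-9090000.

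Loops over the whole stretch recurred about as often as on the 10 chromosomes together, with parts above and below the others. A loop was counted as shared when both of its anchors overlapped those of 1 loop of the other replicate. As with domains, the shares of both replicates come from the same matches. The 89 shared loops were 43.2% of Replicate 1 and 31.3% of Replicate 2, against 46.1% and 30.3% over chromosomes 1 to 10. In the first 10 Mb, 52.4% and 46.2% were shared, where the others had 23.1 to 58.8% and 14.8 to 37.2%, so that chromosome 6 was above them all in Replicate 2. Its Wilson interval there, 36.5 to 56.3%, reached just into their range. From 20 to 37 Mb, 41 loops of each replicate were shared, or 39.8% and 25.3%. These shares lay below all the others (44.1 to 52.8% and 26.4 to 34.9%). Their Wilson intervals, 30.9 to 49.5% and 19.2 to 32.5%, reached into both ranges. Shared loops had a median ratio of observed to expected contacts of 5.88 in Replicate 1 and 5.59 in Replicate 2, and the remaining loops 4.49 and 4.34. Over all loops of the stretch, the median ratio was 4.94 and 4.65, where the others had 4.798 to 5.58 and 4.18 to 4.64. In this measure chromosome 6 was within the range in Replicate 1 and just above it in Replicate 2.

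Identical anchors in both replicates were found for 48 loops, which was 23.3% of Replicate 1 and 16.9% of Replicate 2, where the others had 16.3 to 24.8% and 10.8 to 15.5%. Since all anchors of Replicate 2 were of 10 kb, only loops of Replicate 1 with 10-kb anchors could be identical. These were 104 of 206 on the stretch. Chromosome 1 had 160 of 437, with 74 identical, and chromosome 10 had 114 of 266, with 66 identical. The shares thus depend on the mix of anchor sizes. Of the 48, 27 had at least 20 contacts in each. Contacts were higher in Replicate 2 for 47 of the 48, but the ratio to the expected contacts was higher in Replicate 1 for 24. Of the 27, the one with the largest ratio in its weaker replicate joined chr6:20660001-20670000 to chr6:21020001-21030000, 360 kb apart. It had 27 contacts in Replicate 1 (7.87 times the expected) and 65 in Replicate 2 (8.48 times). The next joined chr6:23010001-23020000 to chr6:23190001-23200000, 180 kb apart, with 32 contacts (7.77 times) and 73 contacts (7.69 times). The one after that joined chr6:4930001-4940000 to chr6:5180001-5190000, 250 kb apart, with 25 contacts (7.52 times) and 87 contacts (11.6 times).

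A closed set of 3 anchors was also among these 27 loops. The anchors at chr6:7240001-7250000, chr6:7400001-7410000 and chr6:7480001-7490000 were joined in all 3 pairs in both replicates. The outer pair had 22 and 56 contacts (7.22 and 9.31 times the expected), the left pair 37 and 65 (9.22 and 6.18 times) and the right pair 62 and 131 (6.54 and 7.64 times). All 3 pairs were above 6 times the expected contacts in each replicate. This set was named after its values were seen.

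**Figure D4:**
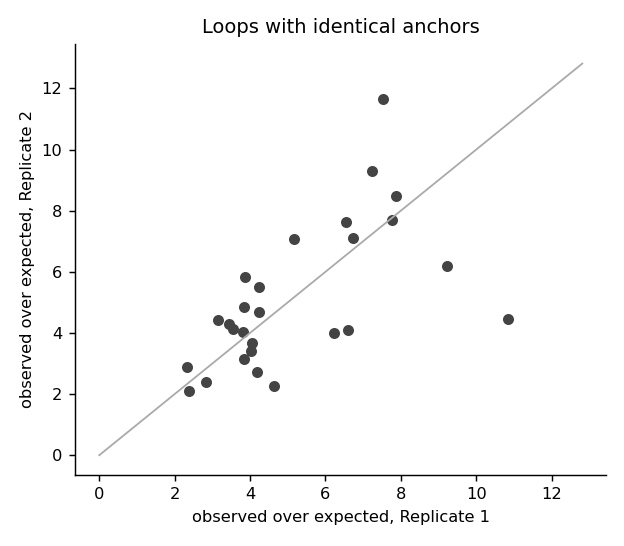
Ratio of observed to expected contacts in Replicate 1 (x axis) and Replicate 2 (y axis) for the 27 loops of the first 37 Mb of chromosome 6 with identical anchors and at least 20 contacts in each replicate. The line marks equal ratios. The points lie on both sides of it.

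Long loops were a larger share of the loops than on any other chromosome. The median length, from anchor start to anchor start, was 130 kb in Replicate 1 and 150 kb in Replicate 2 (others 97.5 to 150 kb and 100 to 140 kb). Loops longer than 500 kb, a limit set after the values were seen, were 19 of 206 loops in Replicate 1 (9.22%) and 24 of 284 in Replicate 2 (8.45%), against 1.15 to 3.76% and 0.756 to 4.92% in the others. As a number, 19 was above the others of Replicate 1 (4 to 11), but 24 was equaled by chromosome 9 in Replicate 2 (others 5 to 24), where the other chromosomes had 427 to 662 loops in all. The long loops of Replicate 1 mostly had anchors of 25 kb. Only that from chr6:23925001-23930000 to chr6:24865001-24870000 had anchors of 5 kb. Among the 104 loops of Replicate 1 with 10-kb anchors, 2 were longer than 500 kb (1.92%), within the range of the others (0 to 3.51%). In Replicate 2, where all anchors were of 10 kb, the share stayed above the others also with at least 20 contacts required, at 7 of 221 loops (3.17%), against 0 to 1.80%.

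Of these long loops, 5 of 19 were shared in Replicate 1 and 5 of 24 in Replicate 2. Both were smaller shares than among all loops of the stretch, 43.2% and 31.3%. The shared long loop furthest above its background joined chr6:23925001-23930000 to chr6:24865001-24870000 in Replicate 1, 940 kb apart, with 30 contacts, 134 times the expected. In Replicate 2 its counterpart had the same length and 33 contacts, 34.4 times the expected. The longest shared loop joined chr6:31725001-31750000 to chr6:32900001-32925000 in Replicate 1, 1175 kb, with 18 contacts (5.08 times). Its counterpart in Replicate 2 was 1170 kb long, with 17 contacts (7.51 times). The shared long loop with the most contacts in Replicate 1 started at chr6:7775001-7800000 and ended at chr6:8500001-8525000, inside the nest of domains near 8 Mb. It was 725 kb long with 38 contacts there, and 740 kb long with 35 contacts in Replicate 2.

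The long loops that were not shared differed in place. In Replicate 1, 10 of these 14 lay in the first 10 Mb, and 5 of the 10 left from a single anchor of 25 kb at chr6:2750001-2775000. No other anchor of Replicate 1 had as many loops, and all 5 ran to the right over 600 to 1075 kb. They had 16, 18, 23, 28 and 45 contacts, and their ratios to the expected contacts ranged from 14.7 to 62.4. None of the 5 was found in Replicate 2. Without that anchor, 6.97% of the loops of Replicate 1 were longer than 500 kb. In Replicate 2, 11 of these 19 lay beyond 20 Mb, and 4 of the 11 ended between chr6:30740001 and 30760000. In Replicate 1, chr6:30740001-30800000 lay outside level 0 domains.

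**Figure D5:**
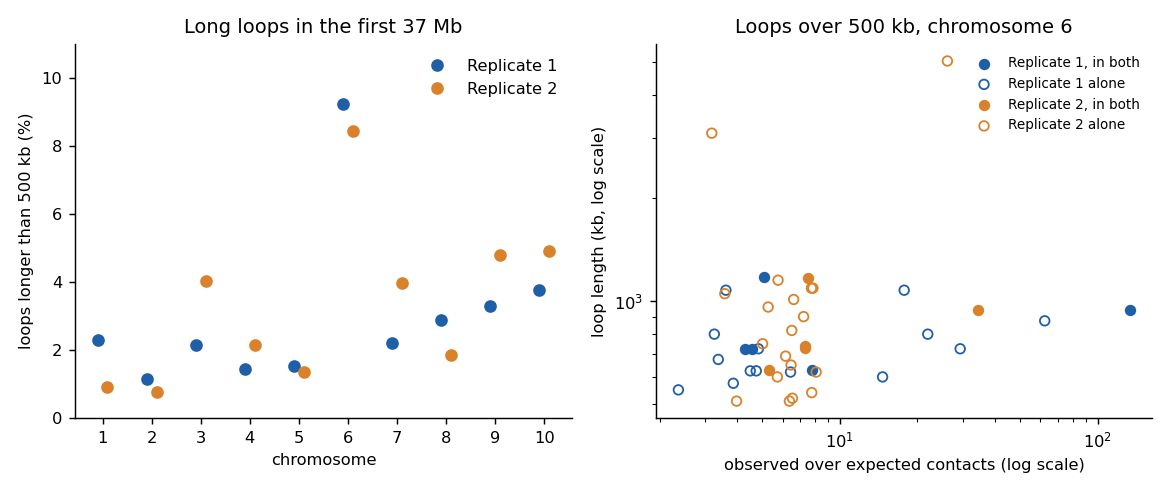
Left, the share of loops longer than 500 kb (y axis, %) in the first 37 Mb of each chromosome (x axis), in Replicate 1 (blue) and Replicate 2 (orange). Chromosome 6 was highest in both, at 9.22% and 8.45%. Right, for these loops of chromosome 6, the ratio of observed to expected contacts (x axis, log scale) and the length (y axis, kb, log scale), filled where the loop was found in both replicates. The loop of 940 kb lay furthest to the right in both replicates.

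Anchors that took part in several loops were fewer than elsewhere in both replicates (55 against 64 to 109 and 139 against 217 to 363), but as a share they were outside the range of the others in Replicate 2 alone. In Replicate 1, 15.8% of 348 anchors took part in more than 1 loop, within the range of the others (11.8 to 16.3%). In Replicate 2, 43.2% of 322 anchors did, below the range of the others (46.6 to 53.3%). The top anchor of Replicate 2, chr6:21260001-21270000, had 4 loops to the left and 3 to the right, 180 to 600 kb long, with 15 to 72 contacts. The loop with the most contacts of Replicate 1, 87, joined chr6:675001-700000 to chr6:775001-800000 (4.61 times the expected). That of Replicate 2, 136, joined chr6:29600001-29610000 to chr6:29660001-29670000 (7.22 times). Neither was shared.

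Loops and domain boundaries met less often than elsewhere in Replicate 2. Level 0 boundaries with a loop anchor within 2 kb were 46 of 99 in Replicate 1 (46.5%) and 49 of 109 in Replicate 2 (45.0%). The others ranged from 40.2 to 67.4% in Replicate 1 and from 65.2 to 73.9% in Replicate 2, so that chromosome 6 was outside the range in Replicate 2 alone. It also had the fewest anchors, 348 against 452 to 747 in Replicate 1 and 322 against 445 to 701 in Replicate 2. The part of this in the share of boundaries was not tested. In Replicate 1, boundaries that recurred within 10 kb in the other replicate had an anchor in 33 of 58 cases (56.9%), and the remaining boundaries in 13 of 41 (31.7%). In Replicate 2 these were 27 of 58 (46.6%) and 22 of 51 (43.1%).

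Each loop was also classed by the smallest domain of the same replicate that held both anchors. Embedded loops, with neither anchor at a boundary of that domain, made up 37.9% in Replicate 1 and 34.5% in Replicate 2, where the others had 29.3 to 44.8% and 27.4 to 33.1%. Loops with 1 anchor at a boundary made up 30.1% and 29.9%, the lowest of the 10 chromosomes in both replicates, although the next, 30.5%, was close in Replicate 1. Loops with both anchors at boundaries made up 11.2% and 11.6%, and loops that no single domain held 20.9% and 23.9%, both within the ranges of the others. Loops that no single domain held were the longest, with medians of 290 and 265 kb, and embedded loops the shortest, with 90 and 95 kb.

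Few calls lay across the limit at 37 Mb. It was crossed by 1 loop of Replicate 1 and 2 of Replicate 2, and by 1 level 0 domain in each, chr6:36880001-37230000 and chr6:36880001-37270000. The last loop inside the limit was 380 kb long with 17 contacts in Replicate 1 and 40 kb long with 20 contacts in Replicate 2. The first loop to end beyond the limit was among those that crossed it, and it was shared. It was 325 kb long with 31 contacts in Replicate 1 and 320 kb long with 28 contacts in Replicate 2.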

How the data were processed

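Hi-C of maize B73 leaf at stage v04 was analysed for 2 replicates of 1 group. The authors mapped the reads to B73 AGPv4 (RefGen_v4) with Juicer, and domains were called with runHiC and HiTAD at default settings. For loops they ran HICCUPS, from Juicer Tools 1.9.9 in Replicate 1 and 1.14.08 in Replicate 2. Raw contact counts per loop stand in the deposited lists. They also give the expected contacts from local backgrounds, a signal that the authors' software computed, and a q-value (false discovery rate) deposited for each. Domain lists hold start, end and level.

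Lists were compared with Python 3.11.15, pandas 2.3.3, numpy 2.4.6 and scipy 1.17.1, and plotted with matplotlib 3.10.9. Ratios were taken over the donut-shaped background. Loops on unplaced sequence were left out, as were contact matrices, genes and ribosomal RNA genes, which were not analysed here. Starts of loop anchors and domains are given from base 1. Wilson and Poisson intervals (95%) take calls as independent and reflect counting error alone. The comparison functions were checked on lists with known answers.

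The windows, loops and domains named were the top windows, the longest loop, the loop with most contacts, the top anchor, the 3 strongest identical loops, the 3 largest recurring level 0 domains, the longest gap, the deepest domain and those at the 37 Mb limit, unless stated. The rule for members used positions only, but the stretch and these lists were chosen with earlier results of these data known.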

Additional observations from a re-analysis of the deposited data

How the results depend on the processing

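Besides leaving out a replicate, 55 settings were tried for 13 results. Of these settings, 28 moved a value by more than the SD of the replicates (for counts, by over 1.5 times). That SD rests on 2 values and was small for some results, 0.0191 points for coverage and 0.755 points for shared domains. For these a small shift already counted as moved, so the number of 28 does not measure how stable the results were. Changes of direction were not scored. Some rankings did change. Without 10 to 20 Mb, chromosome 6 was no longer the sparsest in loops in Replicate 1. Per covered Mb, it was not the lowest in domains in either replicate. With 10-kb anchors only, its share of long loops in Replicate 1 was within the range of the others. The 9 settings on the part from 10 to 20 Mb, on covered length and on long loops were chosen after seeing the data. The ratio of loop density to the median of the others, 0.592, became 0.664 with 10-kb anchors only, 0.551 with a limit of 30 Mb, 0.489 against the last 37 Mb of the others, 0.656 against their whole length, 0.634 per covered Mb and 0.785 without 10 to 20 Mb. Domain density became 8.19 per covered Mb, from 7.61. With at least 20 contacts, loop length became 118 kb, the ratio of observed to expected contacts 4.25, shared loops 27.3% and loops longer than 500 kb 7.72%. With 10-kb anchors only, embedded loops became 33.1% and loops longer than 500 kb 5.19%. Without the anchor with the most loops, 7.63% were longer than 500 kb. Identical anchors left 20.1% of loops shared. With a limit of 30 Mb, level 0 domain size became 218 kb, coverage 91.0% and shared domains 29.9%. With domains of at least 100 kb, size became 248 kb, coverage 91.0%, the share of sub-domains 62.6% and shared domains 31.0%. Shared domains were 6.40% with identical boundaries, 54.2% within 50 kb, 18.1% with the same level and 39.9% without 10 to 20 Mb. Embedded loops were 52.8% with the largest domain and 45.8% with both anchors inside to the base. The cause of these shifts was not tested beyond what each setting removes. Leaving out a replicate leaves the value of the other, which is the range given in the report: the density lay from 5.57 to 7.68, its ratio from 0.568 to 0.617, windows without a loop from 2 to 4, level 0 size from 230 to 240 kb, domain density from 7.49 to 7.73, coverage near 92.9%, sub-domains from 63.6 to 65.7%, loop length from 130 to 150 kb, the contact ratio from 4.65 to 4.94, embedded loops from 34.5 to 37.9% and long loops from 8.45 to 9.22%. Shared loops and domains need both replicates and could not be computed from one. No paired analysis was possible because the replicates form 1 group. The lists hold calls only, so that a loop or domain missing from one replicate may lie just under the threshold of its caller.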

Other observations

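Uncovered stretches of 500 kb or more lay on 6 other chromosomes as well, 1 on each, and their limits too were identical in both replicates. They were 910 kb on chromosome 9, 810 kb on chromosome 8, 710 kb on chromosome 3, 600 kb on chromosome 2, 550 kb on chromosome 1 and 500 kb on chromosome 4. Only the stretch of 1900 kb on chromosome 6 exceeded 1 Mb.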
